A study of Mus musculus with 6 samples.

Results

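The cells described here are CD8 T cells of the mouse pancreas, found as barcodes of 10x single-cell libraries by the transcripts they held. The cells were chosen by measured counts: a barcode was taken where it had 200 or more detected genes, mitochondrial UMIs of up to 20% (unique molecular identifiers, 1 per counted transcript molecule), at least 1 UMI of the CD3 chains Cd3d, Cd3e and Cd3g together, at least 1 UMI of Cd8a and Cd8b1 together, and 0 UMIs of Cd4 and of the B cell gene Cd79a. There were 143 such cells among 4929 barcodes that passed the 2 quality limits and 8582 deposited barcodes. The series held 6 libraries of pancreatic cells sorted by EYFP, a yellow fluorescent protein. The mice were of the strain R26[CA]30EYFP on a C57Bl/6J background in every group. EYFP positive cells came from 1 library 9 days after pancreatitis and 2 libraries of homeostasis, and EYFP negative cells likewise. Pancreatitis was induced with cerulein in PBS given into the peritoneum at 50 ug/kg, 7 injections a day for 2 days, and the homeostasis mice had no treatment. The age and sex of the animals, the number pooled per library and the tissue digestion are not given in the sources used here. Each run gave 1 EYFP positive and 1 EYFP negative library, runs 1 and 2 in homeostasis and run 3 in pancreatitis, so that pancreatitis and run 3 cannot be told apart.

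CD8 T cells carry an alpha beta T cell receptor with the CD3 chains and the CD8 co-receptor, which binds MHC class I on other cells. Naive cells circulate through lymphoid organs with the homing receptor Ccr7 and the transcription factors Lef1 and Tcf7. After an encounter with antigen, effector and memory cells make the chemokine Ccl5, change their adhesion molecules and can kill target cells with perforin and granzymes, and some settle in tissues such as the pancreas as resident memory cells.

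EYFP positive runs 1, 2 and 3 gave 5, 13 and 7 CD8 cells, and EYFP negative runs 1, 2 and 3 gave 18, 55 and 45. The libraries held 1044718 to 23658431 UMIs in all, and their CD8 cells 46305 to 382673. The median CD8 cell held 11121, 6827 and 8724 UMIs in the EYFP positive runs and 6333.5, 5889 and 7585 in the EYFP negative runs. EYFP negative run 2 stood apart, with 23 of the 27 CD8 cells under 2000 UMIs and 22 of the 31 over 10% mitochondrial UMIs. Libraries of the same run shared 23, 71 and 47 barcodes in runs 1, 2 and 3. In run 2, 9 of the 13 EYFP positive CD8 barcodes recurred in the EYFP negative library, 4 of them as CD8 cells, with 607 to 1057 UMIs in the EYFP negative copies. Leaving out the shallower copy of each shared barcode is given below where it moved a result. Nothing in the labels ties a run to its own animals, and p-values here describe only how these libraries vary, which may be technical.

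The gate was checked against the marker genes of CD8 T cells. Of the 143 cells, 112 had UMIs of both co-receptor chains, 14 of Cd8a only and 17 of Cd8b1 only, with a median of 10 UMIs of the pair. Cd8b1 was found in 129 cells (90.2%), Cd8a in 126 (88.1%) and the CD3 chain Cd3d in 131 (91.6%), values that the gate itself used. Of the markers that it did not use, Ccl5 was found in 52 cells (36.4%) and Ly6c2, a surface protein of memory CD8 T cells, in 55 (38.5%). Barcodes of an endothelial gate (at least 2 UMIs of Plvap, Kdr and Flt1 together and none of CD3, Cd79a and Ptprc), which should hold none of these markers, gave the level of free RNA. Of its 1707 barcodes 0.351% had a Cd8b1 UMI, 2.34% a Ccl5 UMI and 0.469% a Ly6c2 UMI. An alpha beta receptor constant gene (Trac, Trbc1 or Trbc2) was found in 140 of the 143 cells. The gamma delta gene Trdc was found in 11, of which 9 also had Cd8b1.

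The threshold lies in a sparse range of counts. Inside it, 15 cells had a single co-receptor UMI. Outside it, 7 barcodes were left out by Cd4, of which 4 had 1 Cd4 UMI, 9 by Cd79a, 234 that had CD3 UMIs but no Cd8a or Cd8b1, 26 that had a co-receptor UMI but no CD3, 27 by mitochondrial share and 2 by gene number. Scrublet, a doublet caller, marked 2 CD8 cells, both in EYFP negative run 3. In 7 of the 143 cells genes of another cell type were abundant. Haemoglobin and red cell genes made up over 5% of the UMIs of 3 of them, acinar enzyme genes over 5% in 2, endothelial markers reached 5 UMIs in 2 and ductal or fibroblast markers in 1, and 5 of the 7 were in EYFP negative run 3. Macrophage and B cell markers reached 5 UMIs in 0 cells.

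The size of the CD8 gate did not separate EYFP positive from EYFP negative libraries. CD8 cells were 0.599%, 6.95% and 2.94% of the kept barcodes in EYFP positive runs 1, 2 and 3, against 4.11%, 3.12% and 3.07% in EYFP negative runs 1, 2 and 3. The EYFP positive libraries spread on both sides of the EYFP negative ones. The means were 3.50% ± 3.21 and 3.43% ± 0.587 (SD, n = 3 each), a difference of 0.0655 points (two-sided exact permutation test, p = 1, where 0.1 is the smallest p that 3 against 3 libraries allow). Among CD8 and CD4 T cells together, the CD8 share was 21.7%, 86.7% and 41.2% in EYFP positive runs and 51.4%, 61.1% and 33.1% in EYFP negative runs. The second share of the EYFP positive libraries rests on 13 CD8 and 2 CD4 cells. The mean difference was 1.32 points (exact permutation test, p = 1). Without EYFP positive run 2 the differences were -1.66 and -17.1 points. In summed counts of the kind used below a lower level can come from fewer cells of a type or from less RNA per cell. The sums alone cannot tell these apart, and shares of cells with a UMI are given for some genes only.

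**Figure D1:**
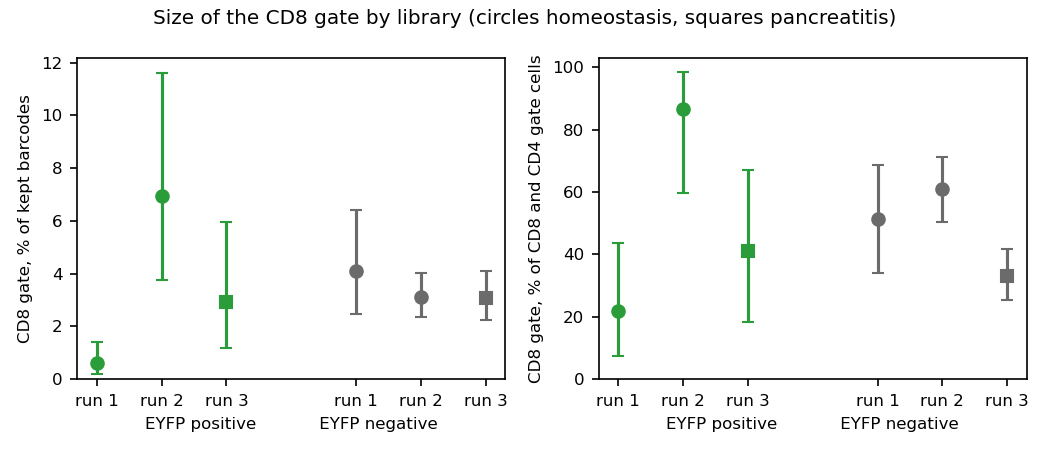
CD8 cells as a percentage of kept barcodes (left) and of CD8 and CD4 gate cells (right) in each library, with exact 95% binomial intervals that cover counting error only. Circles are homeostasis and squares pancreatitis, green EYFP positive and grey EYFP negative; the EYFP positive libraries run from 0.599% to 6.95% of kept barcodes and the EYFP negative ones from 3.07% to 4.11%.

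CD8 cells were set against CD4 T cells of the same libraries to see what marked them beyond the gate genes. CD4 cells were taken by the same limits with at least 1 Cd4 UMI and none of Cd8a and Cd8b1, and there were 173. UMIs were summed per library and gate, and the 3 EYFP negative libraries, which had at least 10 cells in both gates, were tested with edgeR with the library as a block. CD8 cells had more of the granule genes Nkg7 and Ctsw, the killer receptor gene Klrd1, the transcription factor Runx3 and Ly6c2, and less of the helper and regulatory genes Maf, Izumo1r, Ikzf2 and Ctla4. Of 2807 genes tested, 78 (2.78%) were higher and 71 (2.53%) lower at a Benjamini-Hochberg adjusted p under 0.05. Without EYFP negative run 2 the counts were 26 higher and 33 lower, of which 23 and 24 were among the 78 and 71. Without the library block they were 13 and 15, all among the 78 and 71.

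Nkg7, a granule membrane protein of killer cells, had 763, 908 and 1009 CPM (counts per 1000000 UMIs of the summed cells) in the CD8 cells of EYFP negative runs 1, 2 and 3, against 209, 106 and 123 CPM in CD4 cells. All 3 CD8 values lay above all 3 CD4 values, and the log2 fold change was 2.83 ± 0.22 (SE; edgeR, adjusted p = 1.1e-06). Ctsw, the protease cathepsin W of killer cells, had 365, 301 and 233 CPM in CD8 cells, against 78.3, 28.0 and 45.3 CPM in CD4 cells, also without overlap (2.62 ± 0.25). Klrd1, the CD94 chain of the receptor for the MHC molecule Qa-1, had 299, 350 and 253 CPM in CD8 cells, against 87.0, 22.4 and 4.85 CPM in CD4 cells. Its difference was 3.85 ± 0.41 on the log2 scale, and again every CD8 library lay above every CD4 library. Of the granule list 6 genes were counted well enough to be tested, of which 3 were higher and 0 lower. The third was Cst7, a cystatin of killer cells (1.65 ± 0.34). Runx3, a transcription factor that keeps Cd4 silent in CD8 T cells, had 324, 271 and 264 CPM in CD8 cells, against 43.5, 16.8 and 68.0 CPM in CD4 cells (2.53 ± 0.28, edgeR adjusted p = 3.8e-05).

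Ly6c2 and Ly6c1, neighbouring genes of near-identical surface proteins, differed in opposite directions. Ly6c2 had 805, 332 and 368 CPM in the CD8 cells of EYFP negative runs 1, 2 and 3, against 8.70, 0 and 55.0 CPM in CD4 cells (3.72 ± 0.39, edgeR adjusted p = 2.2e-05). Ly6c1 had 8.30, 49.0 and 23.5 CPM in CD8 cells, against 60.9, 157 and 95.5 CPM in CD4 cells (-1.82 ± 0.33, adjusted p = 0.0028). In both genes the gates did not overlap. Reads of such paralogs can be split between them in counting, so the split of the pair is uncertain. In the EYFP positive libraries, which were not tested, Ly6c2 had 929, 397 and 920 CPM in CD8 cells and Ly6c1 0 in all 3. The call on Ly6c1 was lost with DESeq2 (-1.92), without EYFP negative run 2 (-2.05) and without the library block (-1.72).

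The windows from 250 bases before to 50 bases after the first annotated start of Nkg7, Ly6c2 and Ly6c1 are shown because these genes carried the difference and the Ly6 pair parted (RefSeq, GRCm38.p6). They lie at chr7:43436888-43437187 on the plus strand, chr15:75111922-75112221 on the minus strand and chr15:75048788-75049087 on the minus strand, and each is given 5′ to 3′ on the strand of its gene. Capitals mark TGTGGT or its reverse complement ACCACA, letters that Runx proteins are known to bind.
Nkg7: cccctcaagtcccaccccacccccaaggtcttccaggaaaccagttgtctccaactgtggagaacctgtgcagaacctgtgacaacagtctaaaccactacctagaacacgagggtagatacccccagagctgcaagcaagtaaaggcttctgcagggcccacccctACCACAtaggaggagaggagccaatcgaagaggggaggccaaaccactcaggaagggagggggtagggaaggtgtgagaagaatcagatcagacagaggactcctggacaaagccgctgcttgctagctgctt
Ly6c2: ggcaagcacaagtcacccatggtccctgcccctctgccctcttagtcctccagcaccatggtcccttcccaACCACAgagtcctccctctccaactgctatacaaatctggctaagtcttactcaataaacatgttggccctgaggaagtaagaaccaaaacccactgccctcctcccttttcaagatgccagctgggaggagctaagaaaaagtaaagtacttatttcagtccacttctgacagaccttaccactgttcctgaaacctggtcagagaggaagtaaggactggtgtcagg
Ly6c1: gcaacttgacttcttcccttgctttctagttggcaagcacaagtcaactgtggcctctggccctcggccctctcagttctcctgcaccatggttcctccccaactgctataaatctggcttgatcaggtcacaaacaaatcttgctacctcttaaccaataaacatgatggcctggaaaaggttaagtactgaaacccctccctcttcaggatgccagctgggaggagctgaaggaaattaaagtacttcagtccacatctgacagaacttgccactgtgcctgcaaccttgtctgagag
Nkg7 and Ly6c2 had 1 match each, at 83 and 179 bases before the start, and Ly6c1 had 0. Among 32851 RefSeq windows of this length 16.8% held at least 1 match, so a match is common. The Ly6c2 and Ly6c1 windows aligned locally with 208 identical bases among 266 aligned pairs (78.2%), besides 16 gap columns.

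Ccl5, a chemokine that attracts T cells and monocytes, had 1493, 2713 and 4032 CPM in CD8 cells, against 1567, 11.2 and 236 CPM in CD4 cells of EYFP negative runs 1, 2 and 3. In run 1 the CD4 sum was the higher one, so the gates overlapped, although the fit gave 3.20 ± 0.71 (edgeR adjusted p = 0.014). The call was lost when Scrublet doublets were removed (3.47), with DESeq2 (4.06), without EYFP negative run 2 (2.15) and without the library block (2.40). Plac8, a small protein of T cells and myeloid cells, had 58.1, 113 and 175 CPM in CD8 cells, against 34.8, 5.60 and 3.24 CPM in CD4 cells (4.15 ± 0.55).

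Naive and central memory genes were in part higher in CD8 than in CD4 cells. Of 17 such genes tested, 4 were higher and 0 lower, with a median log2 fold change of 0.33 against 0.0027 over all genes tested. Dapl1, a transcript known from naive CD8 T cells, had 738, 452 and 353 CPM in CD8 cells of EYFP negative runs 1, 2 and 3, against 95.7, 95.3 and 167 CPM in CD4 cells (1.89 ± 0.26, edgeR adjusted p = 3.3e-04). The gates did not overlap. Bcl2, which protects lymphocytes from apoptosis (1.33 ± 0.18), and the kinase Txk (1.13 ± 0.21) were also higher. Ccr7 (0.41 ± 0.21), Lef1 (0.23 ± 0.17), Tcf7 (-0.19 ± 0.18) and the IL-7 receptor chain Il7r (0.02 ± 0.21) did not pass. The Dapl1 call was lost with at least 5 cells per sum (1.20).

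Helper and regulatory genes were low in CD8 cells, with 8 of 10 tested genes lower, 0 higher and a median log2 fold change of -3.29. Maf, a transcription factor of follicular helper, regulatory and IL-17 producing cells, had 0, 18.8 and 7.84 CPM in CD8 cells, against 209, 319 and 273 CPM in CD4 cells (-4.62 ± 0.35, edgeR adjusted p = 1.1e-06). Ikzf2, the Helios factor of regulatory T cells, had 74.7, 41.4 and 41.8 CPM in CD8 cells, against 548, 275 and 377 CPM in CD4 cells (-2.87 ± 0.23). Neither gene overlapped between the gates. Ctla4, an inhibitory receptor high in regulatory T cells, had 0, 7.53 and 10.5 CPM in CD8 cells, against 174, 151 and 93.9 CPM in CD4 cells (-3.85 ± 0.46). Izumo1r (folate receptor 4, -3.71 ± 0.32), the CD40 ligand gene Cd40lg (-5.16 ± 0.80), the OX40 gene Tnfrsf4 (-4.61 ± 0.69), Capg and the co-stimulator Icos (-1.87 ± 0.35) made up the rest of the 8. The list has 17 genes, and those at or near 0 in CD8 cells passed the filter on low counts through the CD4 sums, so the count describes the tested genes and is no support for the list.

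Effector and memory genes went both ways, with 3 higher (Klrd1, Ly6c2 and Runx3) and 3 lower of 14 tested. The lower ones were Ly6a, the Sca-1 protein (-1.94 ± 0.27), the integrin chain Itgb1 (-1.09 ± 0.22) and the calcium-binding protein S100a4, with 41.5, 271 and 159 CPM in CD8 cells, against 557, 331 and 411 CPM in CD4 cells (-1.23 ± 0.32, edgeR adjusted p = 0.035). The S100a4 call was lost under 9 of 20 other settings, among which EYFP negative libraries only repeated the main fit. Of 19 receptor and CD3 genes Thy1 was higher (0.73 ± 0.17), and Cd5, a receptor that dampens T cell receptor signals (-1.36 ± 0.22), Cd28 and Trac (-0.58 ± 0.15) were lower. Cd69 (0.17 ± 0.35) and Cxcr6 (0.70 ± 0.35), both known from resident memory cells, did not pass. Immediate-early and dissociation genes, which tissue handling is known to induce, also differed between the gates. Of 19 tested 4 were lower and 0 higher in CD8 cells, with a median of -0.47, namely the phosphatase gene Dusp1 (-1.57 ± 0.28), Hspa1a (-1.15 ± 0.20), Nfkbia (-0.96 ± 0.21) and Junb (-0.89 ± 0.20). Their part in the other differences was not tested. Of 18 acinar enzyme genes 9 were lower in CD8 cells with a median of -1.15. Without the barcodes holding markers of another cell type, of which the CD4 gate had 15 and the CD8 gate 7, Cela3b, Ctrl and Zg16 turned to 0.42, 0.30 and 0.17.

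**Figure D2:**
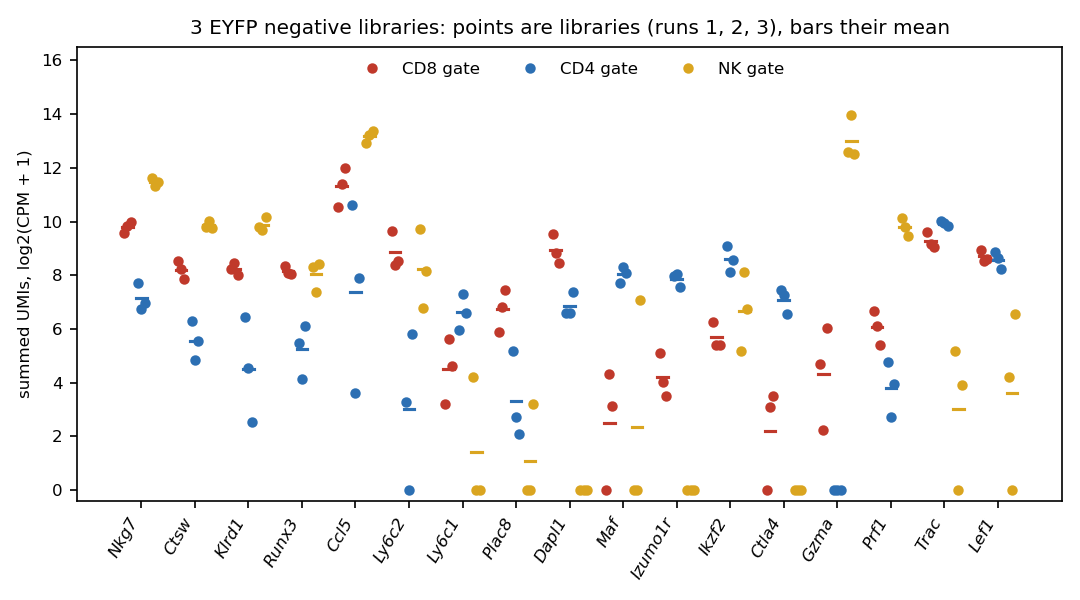
Summed UMIs of 17 genes in the CD8, CD4 and NK gates of the 3 EYFP negative libraries, as log2(CPM + 1); points are libraries and bars their mean. The CD8 points of Nkg7 lie at 763, 908 and 1009 CPM, above the CD4 points, and those of Maf at 0, 18.8 and 7.84 CPM below them.

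Natural killer (NK) cells, which kill without a T cell receptor, were the second comparison. They were taken as barcodes with a UMI of Ncr1 or Klrb1c and none of CD3, Cd4 and Cd79a, and there were 91. The fit used EYFP positive run 3 and the 3 EYFP negative libraries, each with at least 5 cells in both gates, since at 10 cells 1 library was left. The NK sums were uneven, with 6 cells in EYFP positive run 3 and 8, 8 and 66 in EYFP negative runs 1, 2 and 3. The 8 NK cells of EYFP negative run 2 were shallow, with a median of 1461.5 UMIs. CD8 cells had more of receptor genes such as Trac and of the naive cell factors Lef1 and Tcf7 than NK cells, and less of perforin, granzymes A and B and the adaptor Tyrobp. Of 1159 genes tested 104 (8.97%) were higher and 108 (9.32%) lower in CD8 cells. Without EYFP positive run 3 these were 211 and 199, and without EYFP negative run 3 they were 32 and 56.

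The killing machinery was low in the CD8 cells relative to NK cells. Gzma, granzyme A, had 0 CPM in CD8 cells of EYFP positive run 3 and 24.9, 3.77 and 65.3 CPM in those of EYFP negative runs 1, 2 and 3, against 4378, 6135, 15831 and 5782 CPM in NK cells of the same libraries (-7.91 ± 0.58, edgeR adjusted p = 3.3e-08). Prf1, perforin, had 72.2, 99.5, 67.8 and 41.8 CPM in CD8 cells, against 457, 1135, 883 and 708 CPM in NK cells (-3.47 ± 0.30). In both genes every NK library lay above every CD8 library. Gzmb, granzyme B, had 0, 199, 33.9 and 5.23 CPM in CD8 cells, against 114, 656, 883 and 269 CPM in NK cells, with overlap between libraries but lower CD8 values in all 4 pairs (-3.29 ± 0.48). Of its 24 UMIs in CD8 cells of EYFP negative run 1, 22 were in 1 cell. Of 10 granule genes tested 8 were lower and 0 higher, Nkg7 (-1.53 ± 0.25) and Ctsw (-1.60) among them, so that both lay above CD4 and below NK cells.

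The NK gate was itself chosen on receptor genes, and of 18 listed 9 passed the filter on low counts, several through the NK sums, so that all 9 being lower describes these genes and is no support. Tyrobp, the adaptor DAP12, had 108, 0, 7.53 and 39.2 CPM in CD8 cells of EYFP positive run 3 and EYFP negative runs 1, 2 and 3, against 2208, 2979, 2703 and 2506 CPM in NK cells (-6.33 ± 0.50, edgeR adjusted p = 4.3e-08). Klra4, a Ly49 receptor, was at 0 in all 4 CD8 sums, against 438, 638, 938 and 558 CPM in NK cells. The groups did not overlap in either. Of 18 effector and memory genes 13 were lower and 0 higher, with Eomes, a transcription factor of NK and memory cells (-3.49 ± 0.34), and the receptor Klrk1 (-3.61 ± 0.60) among them. Of 9 chemokine and homing receptors tested 1, the egress receptor S1pr1 (2.07), was higher and 3 were lower, the integrin chains Itgb2 and Itgal among them, with a median of -0.61. The chemokine Xcl1 was lower too (-4.88 ± 0.43). Ccl5 had 10013, 1493, 2713 and 4032 CPM in CD8 cells, against 8565, 7837, 9598 and 10674 CPM in NK cells. It was lower in 3 of 4 pairs (-1.20 ± 0.36, adjusted p = 0.025), a call lost without the low-count filter (-0.93), without EYFP negative run 1 (-0.74), without EYFP negative run 3 (-1.30) and without the library block (-0.89).

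Of 15 receptor and CD3 genes 6 were higher in CD8 than in NK cells. The gates asked for CD3 UMIs in CD8 cells and for none in NK cells, so this count describes the gates and is no support. Trac, the alpha chain constant gene, had 631, 771, 576 and 528 CPM in CD8 cells of EYFP positive run 3 and EYFP negative runs 1, 2 and 3, against 19.0, 35.5, 0 and 13.9 CPM in NK cells (5.18 ± 0.41, edgeR adjusted p = 4.3e-08). Themis, a signalling protein of thymocytes and T cells, had 162, 133, 124 and 131 CPM in CD8 cells and was at 0 in all 4 NK sums. It thus passed the filter on low counts through the CD8 sums. Neither overlapped between the gates. Of 12 naive and central memory genes 6 were higher and 1, Txk, lower. Lef1 (2.58 ± 0.38) and Tcf7 (1.82 ± 0.29) were among the 6, while Ly6c2 (0.95 ± 0.35, adjusted p = 0.074) did not pass.

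The CD8 cells were not alike among themselves, and they were split here by Ccl5. Of 143 cells 52 had Ccl5 UMIs, with a median of 50.5 and a maximum of 352, and 91 had none. Among the 52, 36 had 10 or more UMIs, 7 had 2 to 9 and 9 had 1, and single UMIs are within reach of the free RNA seen in endothelial barcodes (2.34% with a UMI). Of CD4 cells 13.3% and of NK cells 93.4% had a Ccl5 UMI. Ccl5 zero cells were shallower than Ccl5 positive cells in EYFP negative run 2, with a median of 7775 UMIs in 11 positive cells and 2380 in 44 zero cells, but not in run 3, with 7237 in 20 positive cells and 8141 in 25 zero cells. Only these 2 libraries had at least 10 cells on both sides, and they were the ones tested, with Ccl5 itself left out. The fit had 4 sums and the library as a block, so the spread of each gene was in large part borrowed from other genes.

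Ccl5 positive cells had more effector and memory genes, among them the calcium-binding proteins S100a6 and S100a4, Ly6c2, the chemokine receptor Cxcr3 and the integrin chain Itgb1. Of 2181 genes tested 13 (0.596%) were higher and 3 (0.138%) lower. Of 17 effector and memory genes 10 were higher and 0 lower, with a median log2 fold change of 3.18 against -0.003 over all genes tested. The list has 26 genes, and some that were tested, such as Klrc1, passed the filter on low counts through the positive cells, so the count describes the tested genes only. S100a6 had 967 and 952 CPM in the Ccl5 positive cells of EYFP negative runs 2 and 3, against 16.4 and 13.4 CPM in the Ccl5 zero cells (5.85 ± 0.40, edgeR adjusted p = 7.0e-06). Ly6c2 had 871 and 775 CPM in positive cells, against 87.6 and 80.4 CPM in zero cells (3.18 ± 0.32, adjusted p = 1.4e-04). Neither gene overlapped between the sides. S100a4 had 871 and 366 CPM in positive cells, against 0 and 13.4 CPM in zero cells (6.04 ± 0.59).

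Ahnak, a large scaffold protein of memory T cells, had 326 and 586 CPM in Ccl5 positive cells of EYFP negative runs 2 and 3, against 32.8 and 44.6 CPM in Ccl5 zero cells (3.43 ± 0.34). Cxcr3, the receptor for interferon-induced chemokines, had 193 and 208 CPM in positive cells, against 16.4 and 4.46 CPM in zero cells (4.17 ± 0.59, edgeR adjusted p = 0.0030). Klrc1, which pairs with Klrd1 as an inhibitory receptor, had 96.7 and 145 CPM in positive cells and was at 0 in zero cells. Over all 6 libraries Klrc1 was found in 18 of 52 positive cells (34.6%) and 0 of 91 zero cells, which allows a share of up to 3.30%. Klrd1 itself differed by 0.17 and did not pass. Itgb1 (3.97 ± 0.49), the repressor Id2 (2.55 ± 0.35), Anxa2 (3.71 ± 0.63) and Lgals3 (4.47 ± 0.91) were the other effector and memory genes that passed. Under other settings Cxcr3 passed in 8 of 12, Klrc1 in 7 of 12, Ahnak in 11 of 13 and S100a4 in 9 of 12. Itgb1 did so in 9 of 13, Id2 in 7 of 13, Anxa2 in 7 of 12 and Lgals3 in only 2 of 10. The cell cycle genes H2afz and Hmgb2 were also higher, calls kept in 5 and 3 of 13 other settings.

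Naive and central memory genes did not fall with Ccl5 beyond the threshold, with 0 of 18 tested passing and a median of -0.89. Ccr7 had 133 and 37.8 CPM in Ccl5 positive cells of EYFP negative runs 2 and 3, against 257 and 228 CPM in Ccl5 zero cells (-1.79 ± 0.41, edgeR adjusted p = 0.074). Over all libraries a Ccr7 UMI was found in 34.6% of positive and 69.2% of zero cells, shares that depth can move. Nkg7 (1.10 ± 0.26, adjusted p = 0.089), Lef1 (-1.22 ± 0.34, adjusted p = 0.15), Cxcr6 (1.75 ± 0.46, adjusted p = 0.12) and Cd69 (0.38) did not pass.

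A single cell of EYFP negative run 2 carried much of that library's positive side. It had 15743 UMIs, 310 of Ccl5 and many of the proliferation genes Mki67 (25), Ube2c (52), Cenpf (30), Top2a (26) and Hmgb2 (167), and it held 65 of the 80 S100a6 and 65 of the 72 S100a4 UMIs there. Without it S100a6 differed by 5.13, S100a4 by 4.84 and Ly6c2 by 3.32, each still past the threshold, Ccr7 passed at -1.61, and 26 genes were higher and 16 lower. With DESeq2 4 genes were higher, with Scrublet doublets removed 2, with at least 2 UMIs asked of the gate genes 1 and with sums thinned to equal totals 4, each of them among the 13. S100a6 passed in all 13 other settings and Ly6c2 in 12 of 13. The 3 lower genes were Hbb-bt (haemoglobin), the endothelial gene Igfbp7 and Ramp1. Endothelial markers reached 5 UMIs in 1 cell of run 2 and 1 of run 3, and the part of such barcodes in those calls was not tested beyond their removal, which left 1 lower gene.

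The 4 libraries outside this test held the same order for S100a6. It had 419, 560 and 520 CPM in Ccl5 positive cells of EYFP positive runs 1, 2 and 3 and 303 CPM in those of EYFP negative run 1, against 0 CPM in the Ccl5 zero cells of all 4. The zero sides held 2, 6, 2 and 12 cells. Counted over all 6 libraries, an S100a6 UMI was found in 57.7% of Ccl5 positive cells and 5.49% of Ccl5 zero cells, a Cxcr3 UMI in 55.8% and 4.40%, and an S100a4 UMI in 30.8% and 1.10%. Most of these cells came from EYFP negative runs 2 and 3, the tested libraries, so the pooled shares are no separate support. Depth can move them too.

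The windows around the starts of S100a6 at chr3:90612644-90612943 on the plus strand and of Hspa1a, described with pancreatitis below, at chr17:34972107-34972406 on the minus strand are shown because both genes passed the threshold in their comparisons (RefSeq, GRCm38.p6). Capitals mark TGTGGT or ACCACA in S100a6 and GAANNTTC, letters that heat shock factors are known to bind, in Hspa1a.
S100a6: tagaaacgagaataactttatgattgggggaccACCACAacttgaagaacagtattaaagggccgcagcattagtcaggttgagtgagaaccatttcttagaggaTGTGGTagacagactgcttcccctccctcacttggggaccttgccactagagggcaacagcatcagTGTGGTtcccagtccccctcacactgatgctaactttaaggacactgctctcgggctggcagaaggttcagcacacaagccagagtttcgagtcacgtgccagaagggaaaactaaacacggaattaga
Hspa1a: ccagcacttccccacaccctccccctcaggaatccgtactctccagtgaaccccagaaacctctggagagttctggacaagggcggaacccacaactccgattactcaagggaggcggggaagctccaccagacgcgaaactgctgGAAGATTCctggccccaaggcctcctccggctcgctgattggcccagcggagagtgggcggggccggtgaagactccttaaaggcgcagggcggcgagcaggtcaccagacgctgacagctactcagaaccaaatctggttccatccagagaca
S100a6 had 3 matches, at 217, 145 and 79 bases before the start, and the neighbouring S100a4 had 0. Hspa1a had 1 match at 104 bases before the start. GAANNTTC reads the same on both strands and was found in 7.86% of the 32851 windows.

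**Figure D3:**
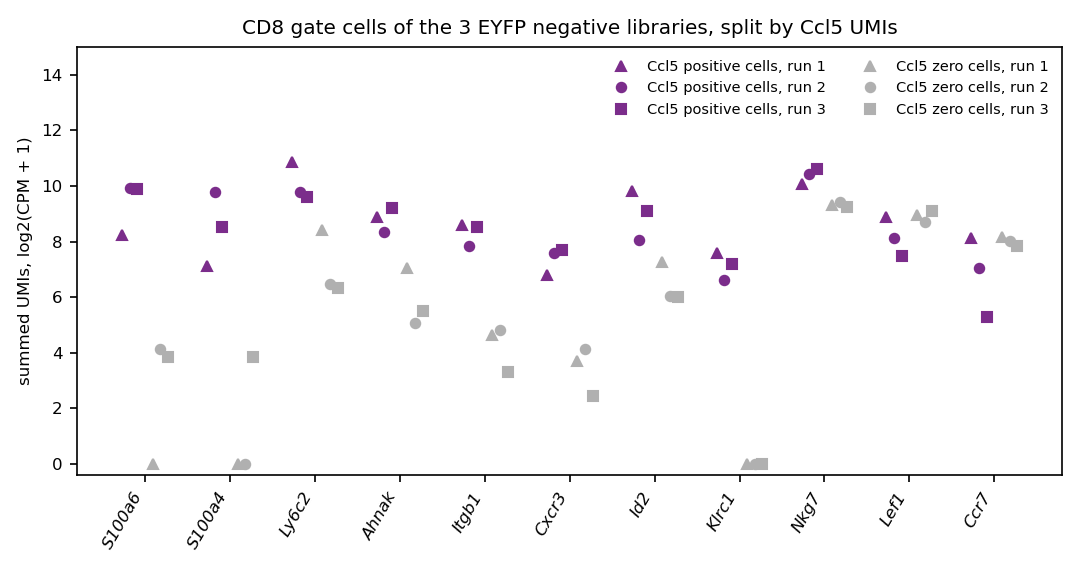
Summed UMIs of 11 genes in Ccl5 positive (purple) and Ccl5 zero (grey) CD8 cells of the 3 EYFP negative libraries, as log2(CPM + 1); triangles are run 1, circles run 2 and squares run 3. S100a6 lies at 303, 967 and 952 CPM in positive cells and at 0, 16.4 and 13.4 CPM in zero cells.

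Granzyme, cytokine and proliferation genes were found in few cells. A granzyme A, B or K UMI was found in 16 of the 143 cells (11.2%), an Ifng UMI, the interferon gamma gene, in 12, and a UMI of Pdcd1, the PD-1 receptor, in 4. Gzma reached 1063 CPM in EYFP positive run 2, where its 91 UMIs were in 2 cells. At least 2 cell cycle genes were found in 4 cells. Variable segments of the receptor were caught in few cells, a Trbv segment in 29 and a Trav segment in 45, and the most frequent, Trbv12-2, in 6.

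EYFP positive and EYFP negative CD8 cells were compared over all 6 libraries, with condition as a covariate and at least 5 cells a library, since at 10 cells a single EYFP positive library was left. Ccl5 positive cells made up more of the EYFP positive CD8 cells in every run. Their share was 60% (3 of 5), 53.8% (7 of 13) and 71.4% (5 of 7) in EYFP positive runs 1, 2 and 3, against 33.3% (6 of 18), 20% (11 of 55) and 44.4% (20 of 45) in EYFP negative runs. The libraries did not overlap, and the means were 61.8% ± 8.92 and 32.6% ± 12.2 (SD, n = 3 each). The difference of 29.2 points gave p = 0.1 in the two-sided exact permutation test, which is the smallest p these 6 libraries allow, so the threshold could not be reached. Within runs the difference was higher in 3 of 3 (exact sign-flip test, p = 0.25, the smallest possible). With cells thinned to 1000 UMIs the shares were 40%, 41.7% and 83.3% in EYFP positive runs, against 22.2%, 12.8% and 40% in EYFP negative runs, and the difference of 30.0 points gave an exact p of 0.2. This was 1 of 17 cell states compared, and none could pass a correction.

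**Figure D4:**
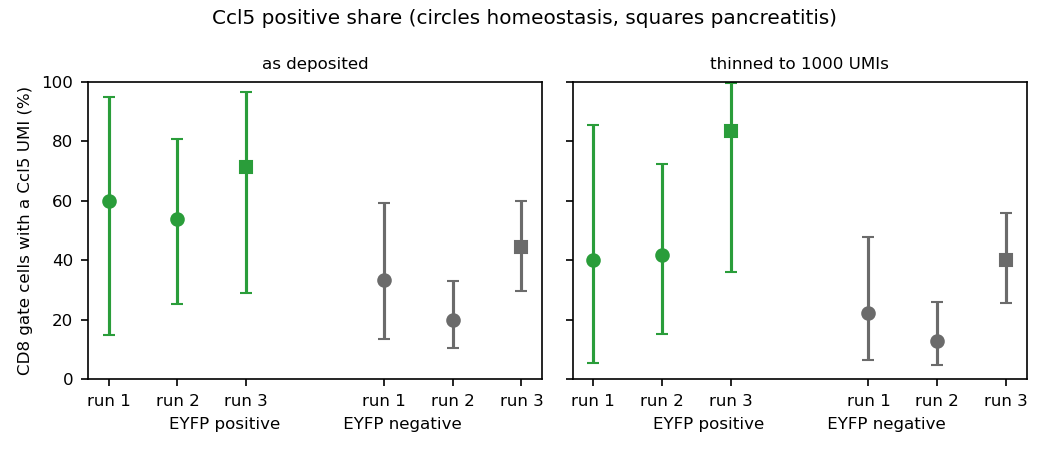
Share of CD8 cells with a Ccl5 UMI in each library, for all UMIs (left) and with each cell thinned to 1000 UMIs (right), with exact 95% binomial intervals that cover counting error only. Circles are homeostasis and squares pancreatitis; EYFP positive libraries (green) range from 53.8% to 71.4% and EYFP negative ones (grey) from 20% to 44.4% in the left panel.

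The shares of cells with Ly6c2 and with Itgae did not overlap between the groups either, and both differences shrank with thinning. Ly6c2 was found in a mean of 68.4% of EYFP positive and 37.1% of EYFP negative CD8 cells (exact permutation test, p = 0.1), and the difference was 2.23 points after thinning (p = 0.9). Itgae, the CD103 chain of resident memory cells, was found in 0 of 25 EYFP positive cells, which allows up to 12%, and in 19 of 118 EYFP negative cells (16.1%), that is 4 of 18, 11 of 55 and 4 of 45 in runs 1, 2 and 3 (exact p = 0.1). After thinning its difference was -2.13 points (exact permutation test, p = 1).

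Across genes 0 of 1235 were higher (0.0%) and 0 lower (0.0%) in EYFP positive CD8 cells with edgeR, and 0 with DESeq2. An unadjusted edgeR p under 0.05 was found for 49 of the 1235, a share below the 0.05 expected where no gene differs. The lowest p-values among higher values were those of Klrk1 with 194, 198 and 505 CPM in EYFP positive runs 1, 2 and 3, against 83.0, 3.77 and 107 CPM in EYFP negative runs (2.35 ± 0.55, adjusted p = 0.26), and of Hopx, a transcriptional cofactor of effector T cells, with 324, 304 and 235 CPM, against 116, 64.0 and 110 CPM (1.57 ± 0.37, adjusted p = 0.26). Neither gene overlapped between the groups, but both were picked by their low p-values, so this is no support. Ccl5 differed by 1.04 ± 0.28 (adjusted p = 0.37), Dapl1 by -2.06 ± 0.54 (adjusted p = 0.37) and Ly6c2 by 0.58 ± 0.41. These values come from the fit without the run as a block, although libraries of the same run correlated at 0.171 to 0.270. With the run as a block the counts were 0 and 2, the haemoglobin genes Hbb-bs (-5.84) and Hba-a1 (-6.09). Without EYFP positive run 2 they were 14 and 19.

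The last comparison set the CD8 cells of the pancreatitis mice against those of homeostasis. The EYFP negative libraries gave 45 cells in run 3 and 18 and 55 in runs 1 and 2, and the spread of the single pancreatitis library was taken to equal that of the homeostasis libraries. With 3 sums in the fit, the spread of each gene was in large part borrowed from other genes. The calls and standard errors rest on that borrowed spread. Of 4175 genes tested 40 (0.958%) were higher and 12 (0.287%) lower in pancreatitis. Red cell genes (6 of 6 tested higher, median 6.53) and acinar enzyme genes (20 of 20 higher, median 2.23) made up 26 of the 40, and of 20 immediate-early and heat shock genes tested 6 were higher and 0 lower. None of these 6 passed with stricter cells, or with all libraries of at least 5 cells and EYFP as a covariate, as given below. In the lists of T cell function 0 of 20 effector and memory, 0 of 18 naive, 0 of 7 residence, 0 of 4 exhaustion, 0 of 18 interferon and MHC class I and 0 of 5 NK receptor genes (median 1.89) passed. Of 11 granule genes 1 was lower, Gzmb, and of 14 cell cycle genes 2 were lower (median -2.28). With 1 pancreatitis library a gene that did not pass is not shown to be unchanged.

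The red cell and acinar values came from a few barcodes. Hbb-bs, a haemoglobin beta chain gene, had 35226 CPM in the run 3 CD8 cells, against 24.9 and 569 CPM in runs 1 and 2, and of its 13480 UMIs 3 cells held 7166, 3932 and 2167, the next cell 10. Ctrb1, a chymotrypsinogen of acinar cells, had 2530 CPM in run 3, against 340 and 305 CPM, and 2 cells held 635 and 162 of its 968 UMIs. Without the barcodes that held markers of another cell type 8 genes were higher and 9 lower, all among the 40 and 12, and Hbb-bs (0.86) and Ctrb1 (0.70) no longer passed. The 8 were Hspa1a, Hspa1b, Fos, Fosb, Jun, Ppp1r15a, Dnajb4 and Coq10b.

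Hspa1a, an inducible HSP70 chaperone, had 559 CPM in pancreatitis, against 8.30 and 98.0 CPM in the EYFP negative homeostasis runs 1 and 2 (3.15 ± 0.44). A UMI of it was found in 27 of 45 cells, against 1 of 18 and 14 of 55. Fos, a subunit of the AP-1 transcription factor, had 562 CPM in pancreatitis, against 83.0 and 75.3 CPM in homeostasis (2.90 ± 0.44). In both genes the pancreatitis library lay above both others. Its partner Jun had 507 CPM, against 16.6 and 249 CPM (1.76 ± 0.41). In Hspa1a and Jun the homeostasis libraries lay further apart, as a ratio, than the pancreatitis library from the nearer of them. Fosb (2.71 ± 0.54), Hspa1b (2.57 ± 0.42) and Ppp1r15a, a stress-induced phosphatase subunit (2.25 ± 0.47), made up the 6. These genes are known to be induced by tissue digestion too, whose part was not tested.

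The EYFP positive libraries did not all follow. Hspa1a had 686 CPM in EYFP positive run 3, against 0 and 304 CPM in EYFP positive runs 1 and 2. Fos had 794 CPM in EYFP positive run 3, against 21.6 and 1623 CPM, so that 1 homeostasis library lay above both pancreatitis libraries. With all libraries of at least 5 cells and EYFP as a covariate 4 genes were higher, all haemoglobins, and 2 lower, and Hspa1a (2.53) and Fos (1.41) did not pass. With a stricter limit on cells, 500 detected genes or more and mitochondrial UMIs up to 10%, none of the 6 stress genes passed, Hspa1a at 3.23 and Fos at 3.54.

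**Figure D5:**
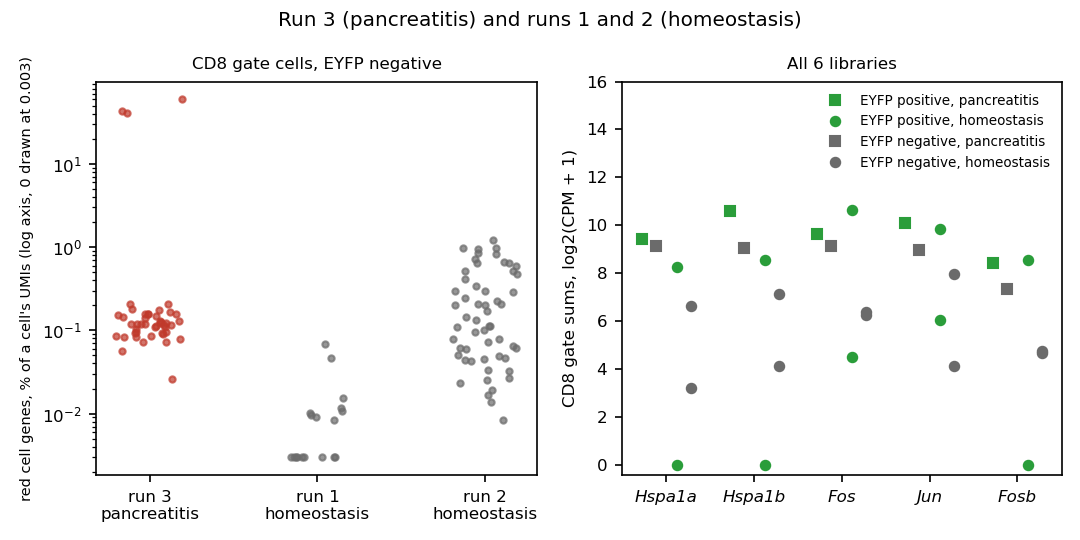
Left, share of each EYFP negative CD8 cell's UMIs from red cell genes, on a log axis, with run 3 (pancreatitis, red) beside runs 1 and 2 (homeostasis, grey); 3 cells of run 3 stand above 5%. Right, 5 immediate-early and heat shock genes in all 6 libraries as log2(CPM + 1), pancreatitis as squares left of homeostasis as circles, EYFP positive in green and EYFP negative in grey; Fos at 1623 CPM in 1 EYFP positive homeostasis library lies above both pancreatitis libraries.

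Among the lower genes were Xist, the B cell gene Igkc and genes carried by very few cells. Xist, the RNA of the inactive X chromosome, was at 0 in run 3, against 962 and 964 CPM in EYFP negative runs 1 and 2, and the EYFP positive libraries had 0 in run 3, against 1361 and 234 CPM. Ddx3y, a Y-linked gene, had 65.3 CPM in EYFP negative run 3, against 0 and 7.53 CPM. The sex of the animals, the run and pancreatitis cannot be told apart. Igkc, the kappa light chain of B cells, had 13.1 CPM in run 3, against 423 and 320 CPM (-4.67 ± 0.62), and was at 0 in all 3 EYFP positive libraries. An Igkc UMI was found in 59 of the 118 EYFP negative CD8 cells of all runs (50%), so it was not confined to a few cells. Ube2c (-5.23 ± 0.86) rested on the proliferating cell of run 2. Gzmb (-4.00 ± 0.81) rested mainly on 1 cell of run 1 with 22 UMIs and on that proliferating cell with 9. Ccl5 (0.99 ± 0.51), Ly6c2 (-0.46 ± 0.43), Cd69 (0.34 ± 0.42) and Gzma (2.61 ± 0.94, edgeR adjusted p = 0.34) did not pass.

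The CD4 cells of the same libraries gave 56 higher (1.79%) and 20 lower (0.639%) of 3130 genes in the same contrast, with 10 of 20 immediate-early and heat shock genes higher. A test of the difference between both gates found 3 genes with a more positive contrast in CD8 cells (0.107%) and 13 with a more negative one (0.463%) of 2807. Without the barcodes holding markers of another cell type the CD4 counts were 23 and 10, with Hspa1a at 3.34, Fos at 3.82 and the early activation gene Cd69 at 2.66, and the test of the difference found 0 and 0.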

How the data were processed

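Single-cell RNA was measured with the 10x system in 6 libraries of sorted mouse pancreatic cells. The authors deposited whole-number UMI counts for each gene and barcode, with integer fields declared per the file headers. The submitters' processing notes name Cell Ranger 2.1.0 and the build GRCh38, whereas the matrix headers state software version 3.1.0 and the gene identifiers are of the mouse; the mouse build is otherwise not given in the sources used here. The members, gene lists, gates and tests were chosen with earlier results of these data known.

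Counts were summed per library and gate (Python 3.11.15, scanpy 1.11.5 for Scrublet) and edgeR 4.0.16 in R 4.3.3 gave the tests (TMM, filterByExpr, quasi-likelihood F test, Benjamini-Hochberg over all genes tested, threshold 0.05), leaving out the genes that define the gates; DESeq2 1.42.0 was an alternative. Sums needed at least 10 cells, and at least 5 in the NK and EYFP comparisons, a limit lowered after seeing the cell numbers. Doublets were kept and their removal was an alternative. Genes named were up to 10 per direction with the largest log2 fold change among those past the threshold that had 1 direction in every library pair and a mean log2 CPM of 5 or more, or the 5 of lowest p where fewer than 5 passed, plus up to 6 per gene list and fixed markers. Deviations from the mean of each EYFP group correlated over genes at 0.270, 0.171 and 0.260 between libraries of the same run. Between other runs the correlations were -0.328 to 0.0976, so libraries of the same run deviated more alike. Run 3 also differs in condition, which these deviations include. Fits were run on simulated counts with a fixed dispersion, a shared mean profile and no library or run effects. This cannot show their error rate on the deposited counts. Intervals and floors cover counting error only (95%; 3 counts for a count of 0). Promoter windows came from RefSeq, with 8 of the 12 genes looked up matched (Biopython 1.88 for the alignment). 1 gene each of the naive and central memory list and of the chemokine and homing receptor list is not reported here.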

Additional observations from a re-analysis of the deposited data

Results flagged for a closer look

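In 16 genes the pancreatitis contrast, EYFP negative run 3 against runs 1 and 2, differed between the CD8 and the CD4 gate by a test of the difference itself (edgeR, adjusted p under 0.05); a positive value means a more positive contrast in CD8 cells. The difference comes from 1 joint fit of both gates with the library as a block, so it is not the subtraction of the values that separate fits of each gate gave, which stand in parentheses. In the T cell genes the difference was 1.81 for Ccl5 (0.99 in CD8 and -1.48 in CD4 cells), 2.07 for S100a6 (0.93 in CD8 and -1.02 in CD4 cells), -4.37 for Ly6c2 (resting on very low CD4 sums in runs 1 and 2, so that its size is uncertain) and -2.39 for Cd69 (0.34 in CD8 and 2.75 in CD4 cells). Without barcodes holding markers of another cell type these were 1.92, 1.98, -4.38 and -2.36, and none passed.

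In acinar enzyme genes the difference was -1.84 for Ctrb1, -2.54 for Rnase1, -2.05 for Cela1, -1.99 for Pnlip, -1.82 for Prss2, -2.11 for Cpb1, -1.74 for Clps, -1.95 for Try4 and -1.93 for Zg16. The haemoglobin gene Hbb-bs differed by 0.89, the nuclear RNA Malat1 by -0.53 and Xist by -6.08. In run 3, 0 of 52 CD8 cells of both EYFP groups held an Xist UMI, and the size of the Xist value is set by that absence. Each contrast rests on 1 pancreatitis library, and both gates share the libraries. The joint fit had 6 sums, and the spread of each gene was in large part borrowed from other genes.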

How the results depend on the processing

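The counts below are genes higher and lower. CD8 against CD4 cells gave 78 and 71, and 47 and 40 with Scrublet doublets removed, 10 and 11 with DESeq2, 137 and 153 with no low-count filter, 23 and 34 with at least 5 cells per sum, 13 and 15 with no replicate block, and 26 to 81 and 33 to 86 with 1 library left out. CD8 against NK cells gave 104 and 108, and 171 and 193 with no low-count filter, 32 to 211 and 56 to 199 with 1 library left out, and 63 lower with sums thinned to equal totals. The Ccl5 split gave 13 and 3, and 2 and 0 with Scrublet doublets removed, 1 and 0 with at least 2 UMIs of the gate genes, 4 higher with DESeq2, 69 and 33 with no low-count filter, 26 and 16 without the cell with 10 or more Mki67 UMIs, 7 and 1 without the shallower copy of shared barcodes, 4 and 0 with thinned sums, 26 and 19 without cells holding Trdc, 5 lower with at least 5 cells per sum, 1 lower without barcodes holding markers of another cell type and 0 lower with no replicate block. EYFP positive against negative gave 0 and 0, and 3 and 11 with no low-count filter, 2 lower with Scrublet doublets removed, with at least 2 gate UMIs, without cells under 2000 UMIs or over 10% mitochondrial UMIs and with the run number as a replicate block, and 0 to 14 and 0 to 19 with 1 library left out. Pancreatitis gave 40 and 12, and 15 higher with Scrublet doublets removed, 16 and 2 with stricter cells, 9 and 3 with DESeq2, 14 higher without haemoglobin and enzyme genes, 8 higher without barcodes holding markers of another cell type, and 4 and 2 with all libraries of at least 5 cells. Without such barcodes the CD4 contrast gave 23 and 10 and the difference between gates 0 and 0, and Hbb-bs turned to -0.59 there, while in CD8 against CD4 cells Cela3b, Ctrl and Zg16 turned to 0.42, 0.30 and 0.17. The causes were not tested.

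The CD8 share of kept cells differed by -1.66 to 1.51 points with 1 library left out, and that of T cells by -17.1 to 15.4, and by -0.21 points with cells thinned to 1000 UMIs. The Ccl5 share differed by 22.9 to 35.1 points. Paired by run, with exact sign flips, neither CD8 share changed its call (p = 1). Of 2635 gene results under other settings 2212 kept direction and side of the threshold, 391 lost and 28 gained it, and 4 reversed. The first count is inflated, since some settings repeated a fit. EYFP negative libraries only in CD8 against CD4 cells, and at least 5 cells per sum in pancreatitis, used the sums of the main fit. At least 20 cells per sum in CD8 against CD4 cells used the same libraries as leaving out EYFP negative run 1. Leaving 1 library out of the Ccl5 and pancreatitis fits leaves no residual degrees of freedom, and the limit of 2 Ccl5 UMIs left too few cells; neither was run. The alternatives on shared barcodes, other cell types, Mki67, low depth, Trdc in the Ccl5 split and all libraries of at least 5 cells in the pancreatitis fit, and the CD4 contrast with its difference, were chosen after seeing the data. CD8 cells per library, 5 to 55, limit every comparison.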

Other observations

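Genes of ribosomal proteins, a group picked after its values were seen, were higher in CD8 than in CD4 cells of the EYFP negative libraries by small amounts. Of 79 tested 32 were higher and 0 lower, with a median log2 fold change of 0.26 and 0.22 to 0.49 among those that passed, in a fit with 2.78% of all genes higher. In the Ccl5 split and in pancreatitis 0 of 79 passed, with medians of -0.21 and 0.08. Gamma chain genes of the T cell receptor were found in 12 of the 143 CD8 cells, Tcrg-C2 in 9 and Tcrg-C1 in 6.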
